A study of Mus musculus with 6 samples.

Results

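The genes described here are 47 genes of DNA replication and S phase that are known as, or work beside, targets of the E2F transcription factors. They were taken by name: 2 cyclin E genes, 10 origin licensing genes, 4 helicase activation genes, 13 genes of polymerases, the sliding clamp, its loader and replication protein A, 2 genes of Okazaki fragment maturation, 5 of nucleotide supply, 6 of chromatin assembly, histone mRNA, maintenance methylation and repair, and 5 E2F genes. All 47 were among the 23284 genes in the deposited count files, and all 47 passed the filter on low counts that left 13390 genes for testing. RNA was sequenced after poly(A) selection in 6 libraries of preSC cells, a mouse line that the labels call a precursor of small cell lung cancer (SCLC). The 3 shCrebbp libraries each carried a different lentiviral hairpin against Crebbp (pLKO.1-TRC-Crebbp-1, pLKO.1-TRC-Crebbp-2 and pLKO.1-TRC-Crebbp-5, called hairpins 1, 2 and 5), and Crebbp encodes the acetyltransferase CREB-binding protein. The 3 control libraries carried pLKO.1-TRC without a hairpin (shEmpty, replicates 1 and 2) or with a non-silencing hairpin (shNS, replicate 3). In published work preSC cells are described as coming from mice whose lung cells lacked Rb1 and Trp53, so hairpin and control cells would share those deletions; the labels do not state a genotype. Whether the libraries came from separate cultures is not stated, so each p-value reflects how far these libraries spread, and the pooled shCrebbp group counts the 3 hairpins as its replicates. Values are given in the order hairpin 1, 2, 5 and shEmpty 1, shEmpty 2, shNS.

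Gene counts totalled from 13622000 to 14651000 reads in the hairpin libraries and from 13688000 to 19805000 in the controls, and the sparsest of the 47 genes, Orc1, still had 141 to 190 reads in each library. Levels are given in CPM, the usual depth-scaled unit (each count divided by the library's gene counts and scaled up), after TMM scaling between libraries. Crebbp, the targeted gene, stood at 46.2, 58.3 and 48.9 CPM with the hairpins, against 66.2, 69.6 and 69.4 CPM in the controls. All 3 hairpin libraries lay below all 3 controls, the log2 fold change was -0.42 ± 0.10 (SE), and edgeR's adjusted p over all tested genes was 0.0999, above the threshold of 0.05 used throughout. Over 8 neuroendocrine markers the summed level ran from 5577 to 7423 CPM in hairpin libraries and from 6778 to 7835 CPM in controls. Over 6 epithelial markers it ran from 1154 to 1631 CPM in hairpin libraries, below the 2455 to 3065 CPM of controls. Leukocyte and endothelial markers summed to at most 5.49 CPM in any library, and the fibroblast collagen genes Col1a1, Col1a2 and Col3a1 were at or near 0. The fibroblast sum, from 13.3 to 63.3 CPM with hairpins and from 37.7 to 45.2 CPM in controls, was mostly Dcn. The part of the lower epithelial markers in the values below was not tested.

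E2F factors switch on, as cells leave G1, the genes that S phase needs. Until then the pocket proteins of the retinoblastoma family hold E2F in check. Cyclin E with CDK2 drives entry into S phase, ORC, CDC6 and CDT1 load the MCM helicase on origins, and CDC45 and GINS turn it into the moving helicase that polymerases, the PCNA clamp and its RFC loader follow. CREB-binding protein is known as a coactivator that binds the activation domain of E2F1. In SCLC the loss of RB1 leaves E2F activity largely unchecked, and tumours divide fast.

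The promoter sequences below are shown because the members are grouped by a shared regulator, and they show how its sites look and where 2 leading members have none of the letters searched. RefSeq promoter windows of 300 bases (250 before to 50 after the annotated start, build GRCm38.p6) were at hand for 41 of the 47 genes. The files were counted on mm9, so these coordinates belong to the sequences and not to the counts. The E2F site was searched as TTTCGCGC, TTTGGCGC, TTTCCCGC and TTTGCCGC on both strands, and matches are in capitals. Matches that overlap each other run together.
Mcm6 (chr1:128359656-128359955, minus strand): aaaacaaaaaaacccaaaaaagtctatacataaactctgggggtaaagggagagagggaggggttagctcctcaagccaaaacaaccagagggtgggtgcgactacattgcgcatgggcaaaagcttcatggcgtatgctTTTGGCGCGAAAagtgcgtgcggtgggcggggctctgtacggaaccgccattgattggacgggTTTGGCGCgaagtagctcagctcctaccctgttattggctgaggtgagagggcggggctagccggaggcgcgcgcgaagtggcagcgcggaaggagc
Mcm5 (chr8:75109259-75109558, plus strand): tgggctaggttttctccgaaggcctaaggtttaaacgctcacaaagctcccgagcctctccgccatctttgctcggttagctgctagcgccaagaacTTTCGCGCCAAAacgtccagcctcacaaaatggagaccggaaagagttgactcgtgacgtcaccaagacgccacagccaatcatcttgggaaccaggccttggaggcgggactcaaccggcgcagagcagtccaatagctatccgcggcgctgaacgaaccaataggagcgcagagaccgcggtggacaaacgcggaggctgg
Orc1 (chr4:108579204-108579503, plus strand): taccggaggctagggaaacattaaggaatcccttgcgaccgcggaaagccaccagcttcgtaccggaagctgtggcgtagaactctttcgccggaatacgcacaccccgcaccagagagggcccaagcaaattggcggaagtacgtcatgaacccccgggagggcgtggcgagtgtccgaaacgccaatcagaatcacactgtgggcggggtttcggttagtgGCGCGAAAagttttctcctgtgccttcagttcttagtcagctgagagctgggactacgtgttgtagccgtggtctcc
Ccne1 (chr7:38107441-38107740, minus strand): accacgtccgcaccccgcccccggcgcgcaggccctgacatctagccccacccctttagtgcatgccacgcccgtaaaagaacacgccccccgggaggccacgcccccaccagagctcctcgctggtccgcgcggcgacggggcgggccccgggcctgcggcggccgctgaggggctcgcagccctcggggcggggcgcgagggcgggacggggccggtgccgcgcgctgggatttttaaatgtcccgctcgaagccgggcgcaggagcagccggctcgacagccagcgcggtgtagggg
Pcna (chr2:132253131-132253430, minus strand): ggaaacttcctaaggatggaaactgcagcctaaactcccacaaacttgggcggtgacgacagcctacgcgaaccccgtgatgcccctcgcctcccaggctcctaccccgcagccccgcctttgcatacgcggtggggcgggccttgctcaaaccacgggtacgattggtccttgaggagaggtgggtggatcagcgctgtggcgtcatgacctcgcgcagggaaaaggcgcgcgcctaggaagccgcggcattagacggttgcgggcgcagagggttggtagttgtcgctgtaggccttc
Mcm6 held 3 matches, of which the 2 farther from the start overlap into a run that reads TTTGGCGCGAAA. Mcm5 held an overlapping pair as well, and Orc1 held a match 27 bases before its start. Ccne1 and Pcna held none in this window, which says only that these letters are not there. A match was present in 17 of the 41 genes (41.5%), against 446 of the 9505 tested genes with a window (4.69%) and 704 of all 27025 genes with a window (2.6%). The CCAAT box (CCAAT, both strands) was present in 26 of the 41 (63.4%), against 43.4% of tested genes, and the CHR element of mitotic promoters (TTTGAA, both strands) in 6 (14.6%), against 13.6%. The median log2 fold change in the count data, hairpins over controls, was 0.096 over the 17 genes with an E2F match, 0.13 over the 24 without and 0.17 over the 6 without a window. A match of this kind is a description of letters and not of a bound site.

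Most of these replication genes stood slightly higher with the Crebbp hairpins, and none was called when the hairpins were pooled. Of the 47, 42 had a positive log2 fold change (median 0.13, range -0.29 to 0.59), while 53.2% of all tested genes had a positive one and their median was 0.015. By library, 33, 35 and 44 of the 47 lay above the control mean with hairpins 1, 2 and 5. In shEmpty 1, shEmpty 2 and shNS the numbers were 18, 21 and 32, so by this count shNS came close to hairpins 1 and 2. In edgeR's quasi-likelihood test 0 of 47 passed an adjusted p of 0.05, against 1.25% of all tested genes (0.276% higher and 0.978% lower). That background was 0% without shEmpty 1 or without shEmpty 2, 0.354% without shNS, and 2.72%, 0.749% and 2.87% without hairpin 1, 2 or 5, and the members' count was 0 each time. At an unadjusted p under 0.05 there were 14 members (29.8%), against 16.5% of all genes, and 13 of them were higher, against 7.99% of all genes. That excess did not hold with each library left out: it was 8.51% of members against 9.14% of all genes without shEmpty 2, and 17% against 19.2% without hairpin 5. The shares were 12.8% and 9.82% without shEmpty 1, 17% and 13.2% without shNS, 40.4% and 19.9% without hairpin 1, and 27.7% and 17.7% without hairpin 2. Positive members numbered 38 to 43 over these 6 runs, the fewest without hairpin 5. DESeq2 called 4 higher (Ccne1, Ccne2, Pcna and Tyms) where it called 5.45% of all genes (2.22% higher). Of the members limma-voom called 0, against 1.19% of all genes (0.232% higher), and with library quality weights it called those 4 genes, against 5.09% (2.04% higher). In 16 of the 47 genes all 3 hairpin libraries lay above all 3 controls, against 11.4% of all genes, and in Brca1 they all lay below, as they did in 11% of all genes. Reads of the 47 genes made up 0.786%, 0.784% and 0.833% of gene counts in the libraries of hairpins 1, 2 and 5, and 0.708%, 0.710% and 0.721% in those of the controls. The mean log2 CPM over the 47, relative to the control mean, was 0.088, 0.12 and 0.20 with the hairpins and -0.014, -0.0051 and 0.020 in the controls. Hairpin 5 was the highest and hairpin 1 the lowest, and the 3 hairpin values did not overlap the 3 control values. In bulk RNA, more cells in S phase and more of these transcripts per cell cannot be told apart. The plot of all members by library shows how far the points of each gene spread.

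**Figure D1:**
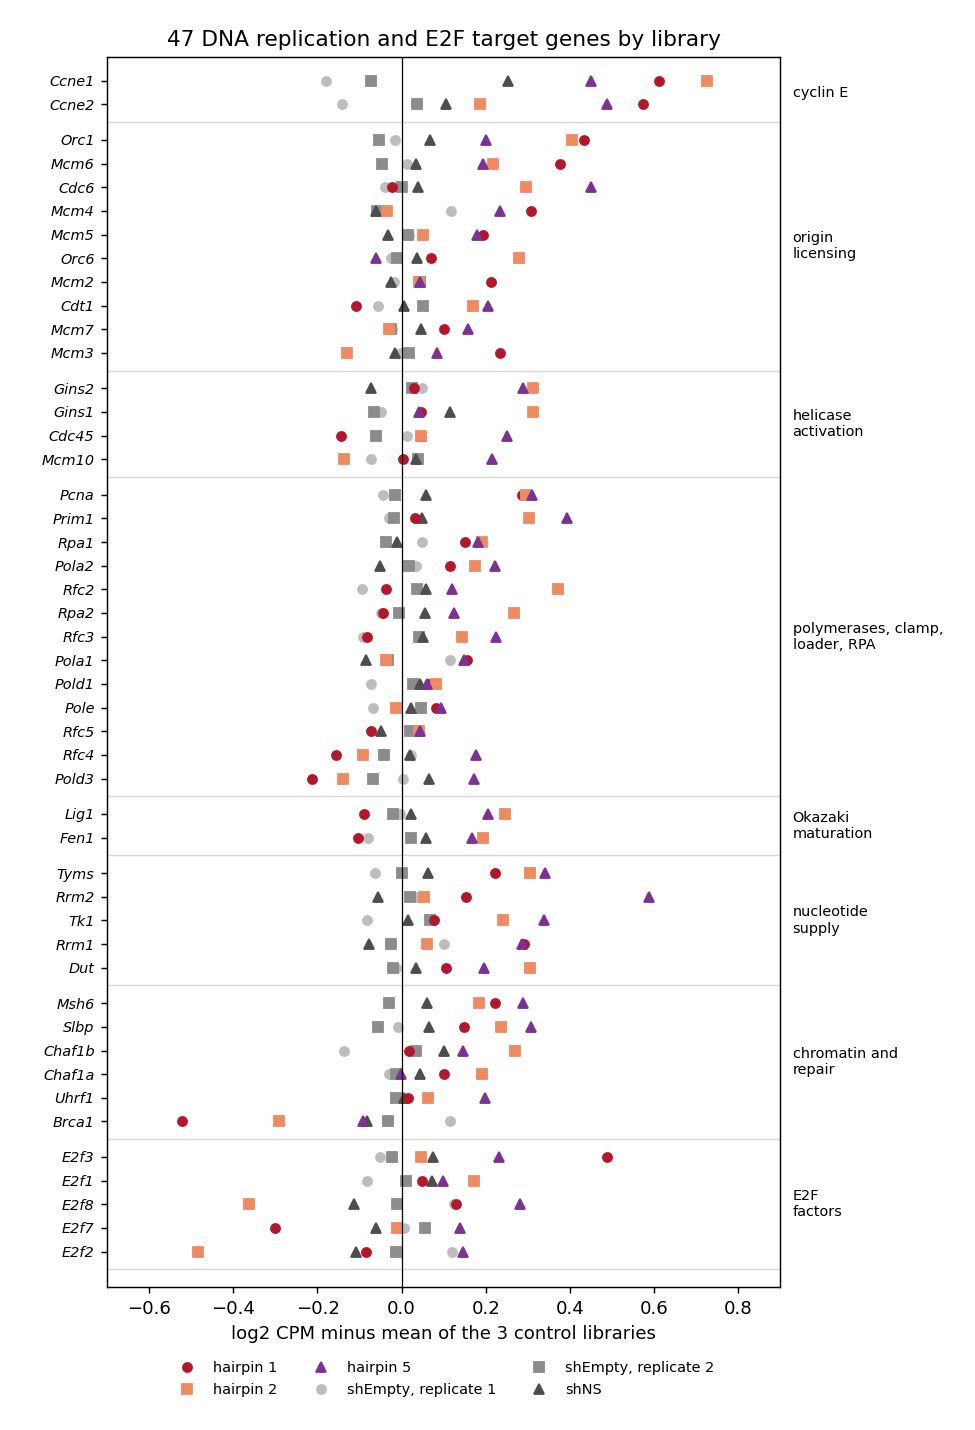
Each row is a gene, grouped by role, and each point a library; the horizontal axis is log2 CPM minus the mean of the 3 controls (0, vertical line). Hairpin points lie right of 0 for most genes, a hairpin 2 point of Ccne1 reaches farthest right, and points of Brca1 and E2f2 lie farthest left.

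The cyclin E genes had the largest mean difference of the 8 role classes. Ccne1, which encodes cyclin E1, the activator of CDK2 at the start of S phase, stood at 56.7, 61.5 and 50.7 CPM with the hairpins, against 32.7, 35.2 and 44.2 CPM in the controls. Every hairpin library was above every control, and shNS was the highest control. The means were 56.3 ± 5.40 and 37.4 ± 6.04 CPM (SD, n = 3 each). That is 1.51-fold, or 0.59 ± 0.13 (SE) as a log2 fold change (edgeR adjusted p = 0.0812). Ccne2, which encodes the paralogue cyclin E2, stood at 105, 80.1 and 98.7 CPM with the hairpins, against 63.8, 72.2 and 75.7 CPM in the controls (log2 fold change 0.42 ± 0.12, edgeR adjusted p = 0.135). Hairpin 2 was the lowest of the hairpins for Ccne2 and the highest for Ccne1. In the annotation at hand 10.5% of the exon bases of Ccne2 are shared with Ints8, and reads in shared bases cannot be assigned with certainty. Per kb of exon the mean levels of the pair were close, at 28.2 CPM per kb for Ccne1 and 29.6 for Ccne2 with the hairpins, against 18.7 and 22.1 in the controls. Both genes were called by DESeq2 (adjusted p = 0.00509 for Ccne1 and 0.0433 for Ccne2).

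**Figure D2:**
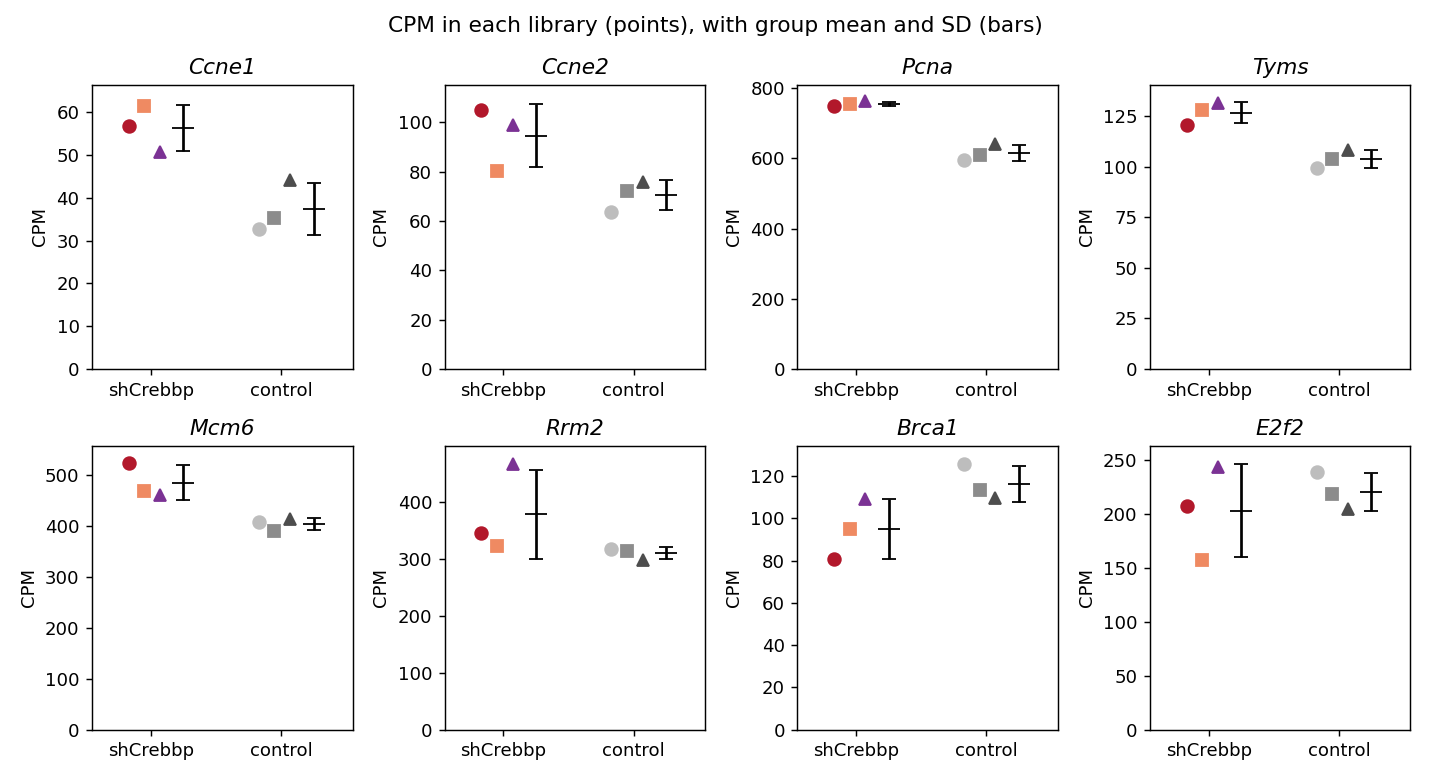
CPM of 8 members in each library (circle, square and triangle for hairpins 1, 2 and 5, and for shEmpty 1, shEmpty 2 and shNS), with the mean and SD of each group (n = 3) as bars; each vertical axis starts at 0. The hairpin points of Ccne1, Ccne2, Pcna, Tyms, Mcm6 and Rrm2 lie above all controls, those of Brca1 below, and those of E2f2 on both sides.

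Origin licensing genes were all higher on average, by small amounts. All 10 had a positive log2 fold change (median 0.12; Mcm3 turned to -0.020 without hairpin 1), 0 passed the pooled edgeR test, and 2 had an unadjusted p under 0.05, Mcm6 and Orc1. Mcm6, a subunit of the MCM2 to MCM7 helicase ring, stood at 524, 468 and 461 CPM with the hairpins, against 407, 390.3 and 413 CPM in the controls (log2 fold change 0.26 ± 0.080, edgeR adjusted p = 0.157). Its hairpin libraries all lay above the controls, with hairpin 1 the highest. Orc1, the largest subunit of the origin recognition complex and the member of lowest level per kb, stood at 13.3, 13.0 and 11.3 CPM with the hairpins, against 9.71, 9.45 and 10.3 CPM in the controls (log2 fold change 0.35 ± 0.14, edgeR adjusted p = 0.256), without overlap. The rest of the ring had log2 fold changes of 0.10 (Mcm2), 0.070 (Mcm3), 0.17 (Mcm4), 0.14 (Mcm5) and 0.078 (Mcm7), and of these Mcm5 alone had hairpin libraries that all lay above the controls. With hairpin 1 all 6 ring subunits were above the control mean, by 0.10 to 0.38 on the log2 scale, while with hairpin 2 Mcm3, Mcm4 and Mcm7 were below it. Cdc6 encodes the ATPase that loads MCM with CDT1, and its range between hairpins was the widest of the class. It stood at 67.3, 83.9 and 93.4 CPM with the hairpins, against 66.5, 68.4 and 70.2 CPM in the controls, so that hairpin 1 lay among the controls and hairpins 2 and 5 above them (log2 fold change 0.26 ± 0.12, edgeR adjusted p = 0.345). Its partner Cdt1, at 94.3, 114 and 117 CPM with the hairpins and 97.7, 105 and 102 CPM in the controls, had hairpin 1 below and hairpins 2 and 5 above all controls (log2 fold change 0.10 ± 0.10, edgeR adjusted p = 0.708). Orc6, another subunit of the origin complex, was at 89.6, 104 and 81.8 CPM with the hairpins and 83.9, 84.7 and 87.5 CPM in the controls, where hairpin 5 was the lowest library of all (log2 fold change 0.10 ± 0.10, edgeR adjusted p = 0.685).

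Helicase activation genes differed little between the groups. The 4 log2 fold changes lay between 0.034 and 0.22, and 0 of 4 reached an unadjusted p under 0.05 in edgeR. Cdc45, which joins MCM and GINS in the active helicase, stood at 70.2, 80.1 and 92.4 CPM with the hairpins, against 78.3, 74.4 and 80.2 CPM in the controls. Hairpin 1 was below all controls and hairpin 5 above them (log2 fold change 0.060 ± 0.11, edgeR adjusted p = 0.852), and without hairpin 5 the log2 fold change was -0.057. Mcm10, which is needed for helicase activation, averaged 39.4 ± 4.92 CPM with the hairpins and 38.5 ± 1.68 CPM in the controls, and its log2 fold change turned to -0.077 without hairpin 5 and -0.0046 without shEmpty 1. The GINS subunit genes Gins1 and Gins2 had log2 fold changes of 0.14 ± 0.11 and 0.22 ± 0.12 (edgeR adjusted p = 0.593 and 0.411). Gins2 shares 70.7% of its exon bases with Gse1 in the annotation at hand.

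At the fork, the hairpin libraries of Pcna, Pold1 and Rpa1 had the narrowest ranges of the 47 members. Pcna encodes the sliding clamp that holds polymerases on DNA, and with 498 CPM per kb with hairpins and 405 in controls it had the highest level per kb of the 47. It stood at 751, 755 and 763 CPM with the hairpins, against 597, 609 and 641 CPM in the controls. The ranges did not overlap, and the 3 hairpins lay within 0.023 of each other on the log2 scale, while the controls spanned 0.10. The log2 fold change was 0.30 ± 0.070, a 1.23-fold difference (edgeR adjusted p = 0.0902; DESeq2 adjusted p = 0.00139). The annotation at hand names 2 pseudogenes of Pcna and 1 of Tyms, and reads that align to several places were set aside before counting. Rpa1, the large subunit of the single-strand binding protein RPA, lay likewise above the controls, at 450.0, 463 and 460.1 CPM with the hairpins, against 419, 395 and 402 CPM in the controls (log2 fold change 0.17 ± 0.070, edgeR adjusted p = 0.266). Prim1, the catalytic subunit of primase, was at 147, 177 and 189 CPM with the hairpins, against 141, 142 and 148 CPM in the controls, with hairpin 1 inside the control range and the other hairpins above it (log2 fold change 0.25 ± 0.10, edgeR adjusted p = 0.278). The DNA polymerase genes had smaller differences, of 0.089 (Pola1) and 0.17 (Pola2) for polymerase alpha, 0.069 (Pold1) and -0.051 (Pold3) for delta and 0.054 (Pole) for epsilon on the log2 scale. Pold1 hairpin libraries, at 147, 149 and 147 CPM, lay just above controls at 134, 143 and 145 CPM, and its adjusted p was 0.716 in edgeR. Among the clamp loader genes Rfc2 had the widest range between hairpins of the fork class, at 107, 142 and 119 CPM with the hairpins, against 102, 112 and 114 CPM in the controls. Hairpin 2 was the highest library and hairpin 1 lay among the controls (log2 fold change 0.16 ± 0.11, edgeR adjusted p = 0.543). Rfc3, Rfc4 and Rfc5 had log2 fold changes of 0.10, -0.016 and 0.0044, and Rpa2 one of 0.12. The signs of Pold3, Rfc4 and Rfc5 turned without hairpin 1 (Pold3 0.023, Rfc4 0.048), without hairpin 2 (Rfc4 0.016, Rfc5 -0.018), without hairpin 5 (Rfc5 -0.026) and without shNS (Rfc5 -0.022). Over the whole class of 13, 11 were positive, the median was 0.10 and 0 passed the pooled edgeR test.

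In both genes of Okazaki fragment maturation hairpin 1 lay lower than hairpins 2 and 5. Neither gene passed the tests between hairpins, or a contrast of a single hairpin with the controls, that are described below. Lig1, the ligase that seals the fragments, stood at 197, 248 and 242 CPM with the hairpins, against 209, 207 and 213 CPM in the controls (log2 fold change 0.13 ± 0.10, edgeR adjusted p = 0.588). Fen1, the flap endonuclease that trims them, stood at 104, 128 and 125 CPM with the hairpins, against 106, 113 and 116 CPM in the controls (log2 fold change 0.091 ± 0.10, edgeR adjusted p = 0.725). In both genes hairpin 1 was below all controls and hairpins 2 and 5 were above all of them. Fen1 shares 84.1% of its exon bases with other genes in the annotation at hand. Elsewhere among the members Chaf1a (33.6%), Rfc2 (19.1%) and, at 11.9% to 15.7%, Orc1, Mcm7, Rfc4, Slbp, Rfc5 and E2f8 share exon bases with other genes, and their counts are uncertain to that extent.

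All 5 nucleotide supply genes were higher on average with the hairpins, and 4 of them had an unadjusted p under 0.05 in edgeR (0 passed after adjustment). Tyms, the thymidylate synthase gene, stood at 121, 128 and 131 CPM with the hairpins, against 99.3, 104 and 108 CPM in the controls. The groups did not overlap, and the log2 fold change was 0.29 ± 0.078 (edgeR adjusted p = 0.119; DESeq2 adjusted p = 0.0295). Dut, whose product removes dUTP, stood at 259.9, 299 and 277 CPM with the hairpins, against 239, 238 and 247 CPM in the controls (log2 fold change 0.20 ± 0.080, edgeR adjusted p = 0.253). Rrm2, the regulated small subunit of ribonucleotide reductase, stood at 345, 322 and 466 CPM with the hairpins, against 318, 314 and 298 CPM in the controls. Hairpin 5 was far above the rest, while hairpins 1 and 2 exceeded the highest control by little (log2 fold change 0.28 ± 0.14, edgeR adjusted p = 0.346). The large subunit gene Rrm1 had a log2 fold change of 0.22 ± 0.093 and the thymidine kinase gene Tk1 one of 0.22 ± 0.10 (edgeR adjusted p = 0.302 and 0.297). Tk1 did not overlap between the groups, and in Rrm1 hairpin 2 lay among the controls.

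In the chromatin and repair class Brca1 went against the others. Brca1, the homologous recombination gene, stood at 80.8, 94.8 and 109 CPM with the hairpins, against 126, 114 and 109.6 CPM in the controls (log2 fold change -0.29 ± 0.12, edgeR adjusted p = 0.269). All hairpin libraries were below all controls, hairpin 1 by the most, and hairpin 5 lay at -0.091 relative to the control mean on the log2 scale. Msh6, a mismatch recognition gene, stood at 145, 141 and 152 CPM with the hairpins, against 121, 122 and 129 CPM in the controls (log2 fold change 0.23 ± 0.075, edgeR adjusted p = 0.18). Slbp, whose product binds the stem-loop of histone mRNA, stood at 187, 199 and 209 CPM with the hairpins, against 168, 162 and 176 CPM in the controls (log2 fold change 0.23 ± 0.079, edgeR adjusted p = 0.199). Neither of the last 2 genes overlapped between the groups. Uhrf1, which brings DNMT1 to newly made DNA, and the CAF-1 subunit genes Chaf1a and Chaf1b had log2 fold changes of 0.094, 0.10 and 0.15, with edgeR adjusted p between 0.527 and 0.617.

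The E2F genes themselves did not share a direction. E2f1, an activator, averaged 135 ± 5.87 CPM with the hairpins and 125 ± 6.74 CPM in the controls (SD, n = 3 each), with libraries at 129, 141 and 134 against 118, 126 and 131 CPM (log2 fold change 0.11 ± 0.080, edgeR adjusted p = 0.572). E2f2, another activator, stood at 208, 157 and 244 CPM with the hairpins, against 239, 218 and 204 CPM in the controls. Hairpin 2 was the lowest library and hairpin 5 the highest, so the mean difference, -0.12 ± 0.15 on the log2 scale, averages over opposite positions (edgeR adjusted p = 0.762). E2f3, the remaining activator, stood at 63.9, 47.02 and 53.5 CPM with the hairpins, against 44.0, 44.8 and 48.0 CPM in the controls, with hairpin 1 the highest and hairpin 2 inside the control range (log2 fold change 0.27 ± 0.12, edgeR adjusted p = 0.326). E2f7 and E2f8 encode atypical E2Fs that repress the same targets. E2f7 stood at 49.7, 60.7 and 67.4 CPM with the hairpins, against 61.5, 63.6 and 58.6 CPM in the controls, where hairpin 1 was the lowest library (log2 fold change -0.047 ± 0.12, edgeR adjusted p = 0.9). E2f8 stood at 86.6, 61.5 and 96.3 CPM with the hairpins, against 86.3, 78.5 and 73.2 CPM in the controls, where hairpin 2 was the lowest library and hairpin 5 the highest (log2 fold change 0.038 ± 0.16, edgeR adjusted p = 0.946). The sign turned with some libraries left out: E2f2 was at 0.028 without hairpin 2, and E2f7 at 0.063 without hairpin 1. E2f8 was at -0.010 without hairpin 1, -0.11 without hairpin 5 and -0.019 without shNS.

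**Figure D3:**
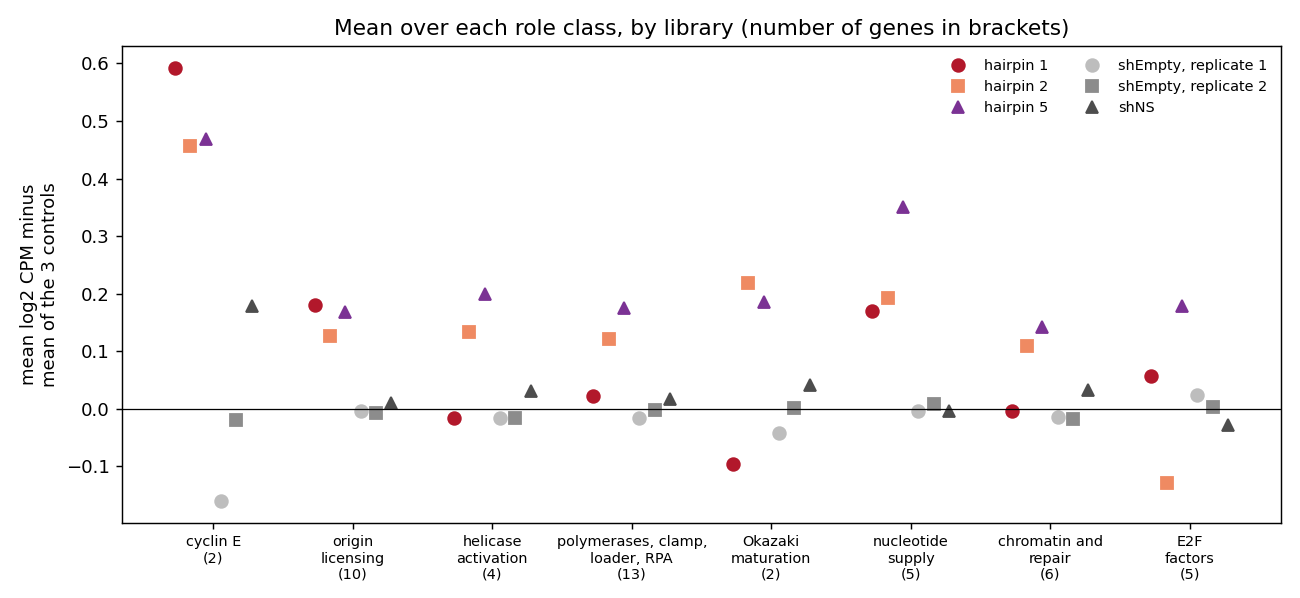
Mean log2 CPM minus the mean of the 3 controls (vertical axis) over the genes of each role class, 1 point per library, hairpins left of controls. Cyclin E lies at 0.59, 0.46 and 0.47 with hairpins 1, 2 and 5, and the hairpin points of the E2F class fall on both sides of 0.

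The contrasts of each hairpin with the controls called different lists of replication genes. A gene outside a list could differ by as much as in a list that holds it. Pcna, called with hairpins 1 and 2 alone, had log2 fold changes of 0.29, 0.30 and 0.31 with hairpins 1, 2 and 5. Tyms, called with hairpin 2 alone, had 0.31 with hairpin 2 and 0.34 with hairpin 5. Crebbp itself had log2 fold changes of -0.57, -0.23 and -0.48 with hairpins 1, 2 and 5, the smallest difference being that of hairpin 2. Each hairpin has 1 library, so these contrasts take their spread from the 3 controls and assume that the lone library varies like them. They compare libraries, and the 3 contrasts share the controls. Members counted below as having risen or fallen are those called higher or lower. With hairpin 1, 5 members rose and 1 fell in edgeR, where 17.9% of all genes were called (8.61% higher and 9.32% lower). Ccne2 (0.57 ± 0.11, adjusted p = 0.00876), Ccne1 (0.61 ± 0.15, adjusted p = 0.029), E2f3 (0.49 ± 0.10, adjusted p = 0.0109), Mcm6 (0.38 ± 0.075, adjusted p = 0.0115) and Pcna (0.29 ± 0.076, adjusted p = 0.0322) rose on the log2 scale in this edgeR fit. Brca1 fell by 0.53 with hairpin 1 (edgeR adjusted p = 0.011). With hairpin 2, 8 members rose and 1 fell, where 17.5% of all genes were called (8.48% higher and 9.03% lower). The 8 were Ccne1 (0.72 on the log2 scale), Rfc2 (0.37), Tyms (0.31), Dut (0.31), Prim1 (0.30), Cdc6 (0.30), Pcna (0.30) and Orc6 (0.28), with edgeR adjusted p between 0.0153 and 0.0497, and E2f2 fell by 0.49 (edgeR adjusted p = 0.0159). With hairpin 5, 3 members rose and 0 fell, where 2.75% of all genes were called (0.866% higher and 1.88% lower). These were Rrm2 (0.59 ± 0.077, edgeR adjusted p = 0.0113), Cdc6 (0.45 ± 0.085, 0.0323) and Prim1 (0.39 ± 0.081, 0.0429). For hairpins 1 and 2 the share of members called in either direction is near or below the share of all genes called. In edgeR the share called higher was near that of all genes with hairpin 1, and above it with hairpins 2 and 5. That difference in shares was not tested. DESeq2 called fewer members higher, and fewer genes in all, with hairpins 2 and 5. With the 2 shEmpty libraries alone as controls, 12, 20 and 11 members were called for hairpins 1, 2 and 5, where 31.5%, 33.9% and 14.6% of all genes were. That fit takes its spread from those 2 libraries alone. The pooled test reads the spread between hairpins as error, while the contrasts of single hairpins do not.

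Few members differed in direct tests between hairpins. In the same fit 4 of 47 differed among the 3 hairpins, against 14% of all genes: Rrm2 (edgeR adjusted p = 0.0185), E2f2 (0.0303), E2f8 (0.0309) and Cdc6 (0.0447). Rrm2 was higher with hairpin 5 than with hairpin 1 by 0.43 and than with hairpin 2 by 0.53 on the log2 scale (edgeR adjusted p = 0.0373, where 6.5% of all genes passed, and 0.0323, where 2.98% did). E2f2 and E2f8 were higher with hairpin 5 than with hairpin 2 by 0.63 and 0.65 (edgeR adjusted p = 0.0402 and 0.0424). Cdc6 was higher with hairpin 5 than with hairpin 1 by 0.47 (edgeR adjusted p = 0.0379). Mcm3, Rfc2, E2f3 and E2f8 differed between hairpins 2 and 1 taken as a pair, by -0.37, 0.41, -0.44 and -0.49 on the log2 scale (hairpin 2 minus hairpin 1). Of these only E2f8 also passed the test among the 3 hairpins. Over all tested genes 14.6% passed for that pair, a larger share than of the members. The range between hairpins had a median of 0.28 over the 47 members on the log2 scale, against 0.11 between controls, and 0.37 and 0.19 over all tested genes. It was wider between hairpins than between controls in 39 of the 47 members, and in 10516 of the 13390 tested genes. The members in which it was not wider were Ccne1, Pcna, Tyms, Pola1, Pold1, Pole, Rpa1 and E2f1. Hairpin 5 was the highest of the 3 hairpins in 23 members (48.9%, against 28.6% of all genes) and hairpin 1 the lowest in 25 (53.2%, against 36.0%).

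Other genes of replication and S phase, from a list of 60 that excludes the members, had a median nearer 0 than the members, a difference that was not tested. Of the 60, 39 had a positive log2 fold change (median 0.043), 0 passed the pooled edgeR test, and 8 (13.3%) had an unadjusted p under 0.05, against 16.5% of all tested genes. All hairpin libraries lay above all controls in 11 and below them in 3, against 11.4% and 11% of all genes. DESeq2 called 1 (Skp2), limma-voom 0 and limma-voom with quality weights 2 (Skp2 among them), all higher. Skp2, which encodes the ubiquitin ligase subunit that removes p27, stood at 71.2, 60.6 and 62.3 CPM with the hairpins, against 48.8, 51.2 and 49.9 CPM in the controls (log2 fold change 0.37 ± 0.092, edgeR adjusted p = 0.0985). Every hairpin library of Skp2 was above every control. Hells, a chromatin remodeller, and Mybl2, the B-Myb gene, had log2 fold changes of 0.24 ± 0.080 and 0.27 ± 0.094 (edgeR adjusted p = 0.185 and 0.208).

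Among 24 genes of the pocket proteins, E2F partners, D cyclins and CDK inhibitors, 22 passed the filter and 0 were called in the pooled edgeR test (5, or 22.7%, had an unadjusted p under 0.05, against 16.5% of all genes, and 9 of 22 were positive). DESeq2 called 2 (Cdkn1c and Ccnd3), limma-voom 0 and limma-voom with quality weights 1 (Cdkn1c). Cdkn1c, which encodes the CDK inhibitor p57, had the largest difference, at 288, 164 and 100.1 CPM with the hairpins, against 58.3, 60.2 and 63.7 CPM in the controls. The hairpin libraries were all above the controls and spread widely, and the log2 fold change was 1.6 ± 0.32 (edgeR adjusted p = 0.0629). It passed without hairpin 1 (1.12, edgeR adjusted p = 0.0301) and without hairpin 5 (1.88, 0.014). Without hairpin 5, Lin9, a subunit gene of the DREAM complex, passed too, in the other direction. Lin9 stood at 58.4, 53.1 and 80.0 CPM with the hairpins, against 85.3, 79.7 and 77.6 CPM in the controls. Its pooled log2 fold change was -0.34 ± 0.15 (edgeR adjusted p = 0.304). In the contrasts of single hairpins Cdkn1c rose with each by 2.24, 1.43 and 0.72 on the log2 scale (edgeR adjusted p = 1.2e-05, 0.000185 and 0.00729), and it differed among the hairpins (edgeR adjusted p = 0.00102). Ccnd3, the cyclin D3 gene, stood at 24.1, 21.1 and 20.3 CPM with the hairpins, against 14.2, 16.3 and 15.3 CPM in the controls (log2 fold change 0.52 ± 0.12, edgeR adjusted p = 0.0948). Ccnd1, at 2.5, 2.64 and 3.20 CPM with the hairpins and 3.78, 4.02 and 4.67 CPM in the controls, lay the other way (log2 fold change -0.58 ± 0.23, edgeR adjusted p = 0.268), and the CDK inhibitor gene Cdkn2b had a log2 fold change of 0.41 ± 0.16 (edgeR adjusted p = 0.251). Rb1 reads stood at 144, 151 and 212 CPM with the hairpins, against 218, 184 and 176 CPM in the controls (edgeR adjusted p = 0.622). Reads in a gene do not tell whether its product is functional.

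Genes of G2 and mitosis stood lower with hairpins 1 and 2, and with hairpin 5 their mean was near the controls. In a list of 30 such genes, 11 had all hairpin libraries below all controls, against 11% of all genes. With hairpin 5 alone, 9 of the 30 lay above the control mean. All 30 genes of that list had a negative log2 fold change (median -0.38), 0 passed the pooled edgeR test, and 17 (56.7%) had an unadjusted p under 0.05, against 16.5% of all genes. DESeq2 called 9 of them (5.45% of all genes), limma-voom 0 (1.19%), the quality-weighted limma-voom fit 4 (5.09%), and edgeR 10 when hairpin 5 was left out (2.87%). The mean over the list, relative to the control mean, was -0.43, -0.77 and -0.10 for hairpins 1, 2 and 5 and 0.11, 0.0052 and -0.11 for the controls, where the members had 0.088, 0.12 and 0.20 and -0.014, -0.0051 and 0.020. Hairpin 5, with the highest mean of the replication genes, was within the control range for the mitotic list. In the contrasts of single hairpins with the controls, the median log2 fold change of the list was -0.43, -0.80 and -0.083 with hairpins 1, 2 and 5. Prc1, which bundles microtubules of the anaphase spindle, stood at 227, 174 and 234 CPM with the hairpins, against 336, 304 and 281 CPM in the controls (log2 fold change -0.54 ± 0.13, edgeR adjusted p = 0.0918). Plk1, the polo-like kinase gene, stood at 106, 83.3 and 119.6 CPM with the hairpins, against 145, 146 and 141 CPM in the controls (log2 fold change -0.48 ± 0.13, edgeR adjusted p = 0.111). The phosphatase gene Cdc25c and the mitotic kinesin gene Kif20a had log2 fold changes of -0.58 ± 0.15 and -0.67 ± 0.18 (edgeR adjusted p = 0.113 and 0.119). 

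**Figure D4:**
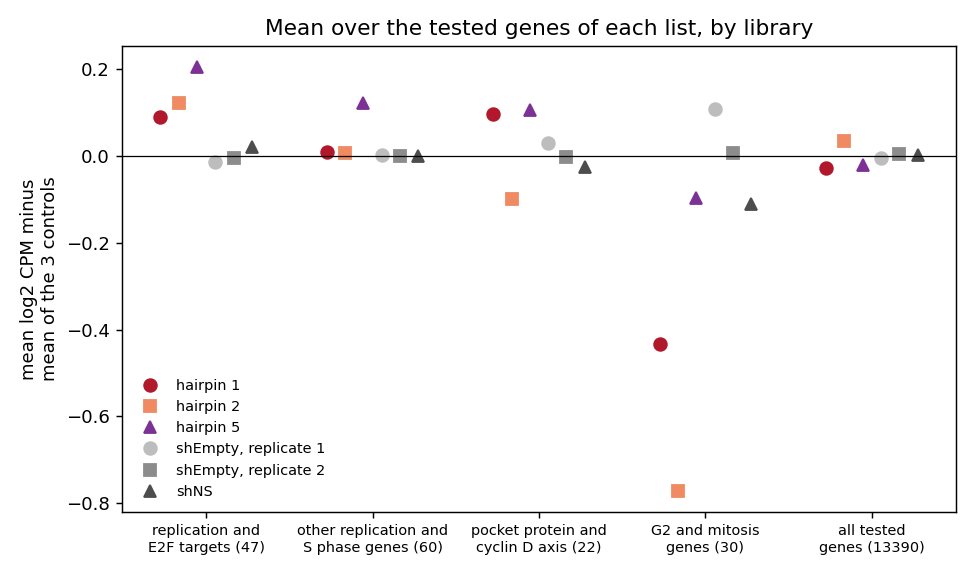
Mean log2 CPM minus the mean of the 3 controls (vertical axis) over the tested genes of each list, 1 point per library, hairpins left of controls. The replication members lie above 0 in all 3 hairpin libraries, the G2 and mitosis genes reach -0.77 with hairpin 2, and all tested genes stay near 0.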

How the data were processed

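Poly(A) RNA libraries of preSC cells were made with a NEBNext Ultra kit, per the labels' protocols. The authors deposited unnormalized read counts per gene, in a file for each library. Software in the submitters' processing notes is bcl2fastq (1.8.2), TopHat2 (2.0.12) and HTSeq (0.6.1), with the build mm9; which annotation and strand setting were used is not given in the sources used here. HTSeq's summary rows (24.8% to 28.9% of counts) were left out. The test of the counts was that of edgeR 4.0.16 (R 4.3.3; filterByExpr, TMM, robust quasi-likelihood fit, group as the term), with Benjamini-Hochberg adjustment over all 13390 tested genes and a threshold of 0.05. Log2 CPM used a prior count of 2. A fit with the controls and each hairpin as 4 groups gave the contrasts of single hairpins. Exon lengths and overlaps came from GENCODE M21 (GRCm38), so levels per kb are approximate. Alternatives were DESeq2 1.42.0, limma-voom (limma 3.58.1), other normalizations and filters, equal depth, and leaving out each library. Tests between hairpins were added after seeing the data. The code was tested on simulated data. Within groups, chi-square per degree of freedom between libraries was 4.08 to 28.4, so none was taken as a repeat of another. The labels name no batch.

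The members, lists and tests were chosen with earlier results of these data known. Values in every library are given for Crebbp, the 12 members of smallest p, the E2F genes, and in each role class the member of widest range between hairpins; from each other list up to 4 genes of smallest p are named, and some results are not reported here. Per-library values of Cdt1, Orc6, Pold1 and Fen1, and Rb1 and Lin9, were chosen after their values were seen.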

Additional observations from a re-analysis of the deposited data

How the results depend on the processing

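The pooled count of members called was 0 in edgeR under every normalization, filter and left-out library tried, and in limma-voom. DESeq2 called 4 members, all higher, 1 gene of the wider replication list (higher), 2 of the pocket protein list and 9 of the G2 and mitosis list. Of all genes DESeq2 called 5.45%. Limma-voom with quality weights called 4 members, all higher, 2 wider genes (both higher), 1 pocket protein list gene and 4 mitotic genes. Of all genes this fit called 5.09%. With each library left out in turn the counts ran from 0 to 0 for the members, 0 to 1 for the wider list (1 higher, without hairpin 1), 0 to 2 for the pocket protein list and 0 to 10 for the mitotic list. The members' median log2 fold change ran from 0.11 to 0.18 and the mean difference from 0.094 to 0.16 over the same runs. For single hairpins DESeq2 called 3 members with hairpin 2 and 1 with hairpin 5, where edgeR called 9 and 3; of all genes it called 9.91% and 2.2%, and edgeR 17.5% and 2.75%. With shEmpty libraries alone as controls edgeR called 12, 20 and 11 for hairpins 1, 2 and 5. The sign turned in 9 of the 47 members when some library was left out, with log2 fold changes that ranged from -0.28 to 0.028 (E2f2), -0.16 to 0.063 (E2f7), -0.11 to 0.20 (E2f8), -0.057 to 0.15 (Cdc45), -0.077 to 0.11 (Mcm10), -0.020 to 0.16 (Mcm3), -0.19 to 0.023 (Pold3), -0.13 to 0.048 (Rfc4) and -0.026 to 0.041 (Rfc5). With quality weights E2f7 was 0.0043, Pold3 0.075 and Rfc4 0.086, and Rfc5 was -0.0047 at equal depth and -0.0057 without a filter. The cause was not tested. No paired analysis was possible because the shCrebbp numbers name hairpins and the control numbers only name libraries. The range between hairpins was wider than between controls in 39 of 47 members and in 10516 of the 13390 tested genes. It enters the pooled test as error. All members had at least 141 reads in every library. Whether spread or depth bears on the pooled count was not tested.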
